A study of Mus musculus with 6 samples.

Results

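The genes described here are 10 listed cytochrome P450 genes of the mouse subfamilies 2d, 2e, 2f, 2j and 2r: Cyp2d9, Cyp2d10, Cyp2d22, Cyp2d26, Cyp2e1, Cyp2f2, Cyp2j5, Cyp2j6, Cyp2j9 and Cyp2r1. Their probe sets were taken by symbol, as all those that the platform annotation pairs with one of the 10 genes. All 10 genes were found, through 13 of 45037 probe sets, out of 18193 genes that had a probe set naming them alone. A probe set is a group of short array probes that together read one transcript. Cyp2d22, Cyp2j5 and Cyp2j6 had 2 probe sets each and the other genes had 1, and no probe set that named several genes included a listed one.

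Liver RNA came from 6 untreated female mice aged 8 weeks, 3 of the inbred strain SM/J (SM) and 3 of the inbred strain NZB/BinJ (NZB), with 1 array per sample. Mice of both strains were weaned at 3 weeks onto chow, went 4 hours without food, and were perfused with 50 mL of saline before the samples were frozen. Samples of a strain are biological replicates by their labels. The RNA is from whole liver, and the strains differ across the genome, so that a difference cannot be assigned to one locus. Whether the strains differ in sequence under the probes was not tested, so each difference is one of probe set signal.

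Cytochrome P450 enzymes of family 2 are heme proteins of the endoplasmic reticulum that insert an oxygen atom into drugs, steroids, fatty acids and other small molecules. They receive electrons from cytochrome P450 reductase, and in some reactions from cytochrome b5. Hepatocytes make most of the body's supply. Several subfamilies form clusters of near-identical genes in the mouse, and some members differ in level between the sexes or between the periportal and pericentral ends of the liver lobule.

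The reference promoters are shown for Cyp2d9 and Cyp2d10, near neighbours whose strain differences were unlike, and for Cyp2j5 and Cyp2j6, which differed in opposite directions. Each line gives 250 bases before and 50 bases from the RefSeq start site, 5′ to 3′ on the gene's strand, in build GRCm38.p6. They are reference sequence and not that of SM or NZB mice. Capitals mark the letters TATAAA, the TATA box motif, on either strand, so that a match on the opposite strand reads TTTATA.
Cyp2d9 (chr15:82452127-82452426, plus strand): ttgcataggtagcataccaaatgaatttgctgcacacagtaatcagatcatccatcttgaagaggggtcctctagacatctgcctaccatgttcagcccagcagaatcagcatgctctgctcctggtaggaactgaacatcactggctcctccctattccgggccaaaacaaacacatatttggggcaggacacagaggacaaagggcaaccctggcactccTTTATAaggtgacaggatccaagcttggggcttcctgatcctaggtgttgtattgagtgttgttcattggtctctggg
Cyp2d10 (chr15:82407145-82407444, minus strand): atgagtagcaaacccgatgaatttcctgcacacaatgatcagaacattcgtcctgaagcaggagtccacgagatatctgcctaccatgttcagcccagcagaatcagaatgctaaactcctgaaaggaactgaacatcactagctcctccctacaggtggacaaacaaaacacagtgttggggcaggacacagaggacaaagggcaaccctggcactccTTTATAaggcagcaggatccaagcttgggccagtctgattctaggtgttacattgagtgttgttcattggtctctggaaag
Cyp2j5 (chr4:96664070-96664369, minus strand): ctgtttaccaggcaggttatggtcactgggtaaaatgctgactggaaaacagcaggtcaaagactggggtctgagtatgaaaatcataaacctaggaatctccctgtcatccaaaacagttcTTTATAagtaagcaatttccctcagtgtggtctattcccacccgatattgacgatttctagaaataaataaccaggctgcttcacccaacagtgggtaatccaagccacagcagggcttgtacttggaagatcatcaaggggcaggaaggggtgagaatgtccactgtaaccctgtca
Cyp2j6 (chr4:96553602-96553901, minus strand): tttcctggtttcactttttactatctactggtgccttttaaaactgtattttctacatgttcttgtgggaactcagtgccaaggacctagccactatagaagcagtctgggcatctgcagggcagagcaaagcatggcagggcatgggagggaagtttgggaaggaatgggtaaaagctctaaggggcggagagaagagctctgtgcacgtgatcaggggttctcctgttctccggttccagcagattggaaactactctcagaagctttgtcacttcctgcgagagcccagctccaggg

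The promoter table held 9 of the 10 genes, all but Cyp2d22. The Cyp2d9 and Cyp2d10 promoters had 251 identical bases of 296 aligned, 84.8%, which was the highest identity among all pairs of the 9 promoters. Cyp2j5 and Cyp2j6 shared 57.3% of 213 aligned bases, with 174 gap positions not counted. Pairs of different subfamilies reached up to 62.8%, for Cyp2d26 and Cyp2e1. The TATAAA motif, searched on both strands, was present in 5 of the 9 promoters and in 13.6% of all 32851 promoters of the same length. In Cyp2d9 it began 28 bases before the start, and in Cyp2d10, Cyp2d26 and Cyp2e1 31 bases before it, while in Cyp2j5 it began 128 bases before it. The match lay on the gene's own strand in Cyp2e1 and on the opposite strand in Cyp2d9, Cyp2d10, Cyp2d26 and Cyp2j5. The motif TTCNNNGAA, which STAT5 can bind, was in none of the 9 and in 8.3% of all promoters. The motif TTATGNAA, a D-box read by PAR bZIP factors such as Dbp, was also in none of them and in 3.38% of all. TGTTTAC, a forkhead motif, was in Cyp2j5 only of the 9 and in 3.65% of all promoters, and GTTAAT, part of an HNF1 site, was in Cyp2d26 only and in 7.1% of all. Overlap between motifs was allowed.

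Array medians lay between 6.60 and 6.66 on the log2 scale, and having only 3 arrays for each strain limits the precision. SM replicate 2 stood apart in Xist, the RNA of the inactive X chromosome. The 3 probe sets of Xist read 4.62, 4.96 and 7.32 there, against 9.58 to 11.0, 7.92 to 8.82 and 12.6 to 12.9 on the other 5 arrays. Tsix, the antisense partner of Xist, read 4.78 to 4.91, and the 9 probe sets of the Y-linked genes Eif2s3y, Kdm5d and Uty read at most 5.67 on any array, a level taken here as background. A probe set of Uty differed by 0.25 (limma adjusted p = 0.0412 over all probe sets) with all arrays under that level. The differences of the 10 genes, each by its brighter or sole probe set, are therefore also given without SM replicate 2. All 13 probe sets of the P450 genes had a mean over the 6 arrays above background. Of 9 measured hepatocyte markers, 8 did not pass the test and 1, Hnf4a, was lower in NZB. Their summed level was 17.5 in log2 units on every array. This sum gives most weight to the brightest markers, such as Alb at 14.9, the top of the scale. Whether differences are compressed there was not tested.

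The comparison asks how these genes differ between the livers of NZB and SM females. Differences are NZB minus SM in log2 expression, with the standard error (SE) of the limma fit, and a gene counts as higher or lower where its Benjamini-Hochberg adjusted p, over all 18193 genes, was under 0.05. Of the 10 genes, 2 were higher in NZB, Cyp2d9 and Cyp2j5, 2 were lower, Cyp2d22 and Cyp2j6, and 6 did not pass the test. Calls were made for 4 of 10 genes, where 21.0% of all genes were called, 8.47% as higher and 12.6% as lower. The median difference of the 10 genes was 0.05 and that of all genes 0.02, and the median sizes were 0.24 and 0.12. The same genes were called without SM replicate 2. Of the 13 probe sets, in a limma fit over all 45037, 3 were higher and 4 lower, where 14.8% of all probe sets were called, 6.09% as higher and 8.69% as lower. Both probe sets of Cyp2d22, Cyp2j5 and Cyp2j6 are among these calls, which are therefore not all separate genes. With probe sets of a mean up to 5.54 left out as dim, 6526 of 32864 were called. Over all genes the higher calls numbered 1541, but 867 when SM replicate 2 was left out, 1021 when NZB replicate 2 was and 903 when NZB replicate 3 was. The lower calls numbered 2286, but 1510 with SM replicate 2 left out and 1480 with NZB replicate 3 left out.

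**Figure D1:**
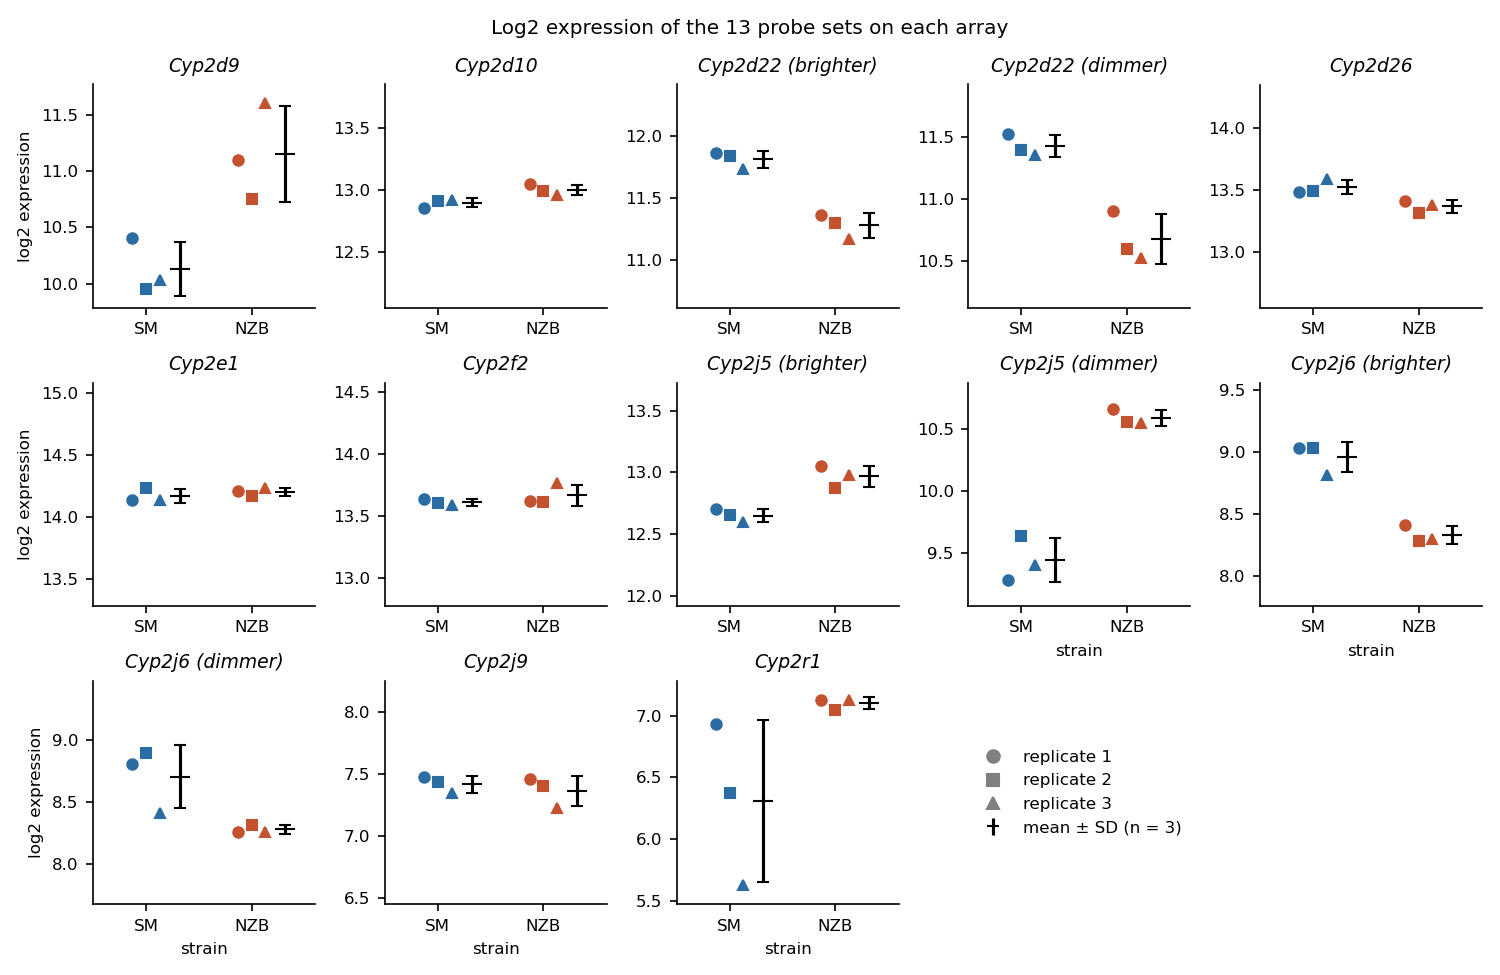
Log2 expression of each of the 13 probe sets in the 3 SM and 3 NZB mice, 1 point per array, with the strain mean ± SD (n = 3) beside the points. Axes differ between panels. The arrays of the strains overlap for Cyp2e1, Cyp2f2 and Cyp2j9 and in no other panel.

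Among the Cyp2d genes, Cyp2d9 encodes a steroid hydroxylase that acts on testosterone and is known as a male-biased gene of mouse liver under growth hormone control. It read 10.40, 9.95 and 10.03 in SM replicates 1, 2 and 3 and 11.10, 10.76 and 11.61 in NZB replicates 1, 2 and 3. Every NZB array lay above every SM array, and NZB replicate 3 was the highest of the 6. The strain means were 10.1 ± 0.24 and 11.2 ± 0.43 (SD, n = 3 each), a 2.04-fold higher level in NZB (1.03, SE 0.19, limma adjusted p = 0.00554). The difference was 0.94 without SM replicate 2 (adjusted p = 0.0293) and 0.80 without NZB replicate 3 (adjusted p = 0.0130), and the adjusted p ranged from 0.00225 to 0.0363 over all alternatives.

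Cyp2d22, described as a mouse relative of the human drug-metabolizing enzyme CYP2D6, went the other way. Its brighter probe set read 11.86, 11.84 and 11.74 in the SM mice and 11.37, 11.30 and 11.17 in the NZB mice. The dimmer one read 11.53, 11.40 and 11.36 in SM and 10.90, 10.60 and 10.52 in NZB. In both, all SM arrays lay above all NZB arrays. The gene was 1.45-fold lower in NZB by the brighter probe set (-0.53, SE 0.07, limma adjusted p = 0.00100), and the difference was -0.52 without SM replicate 2 (adjusted p = 0.00709). In the fit over all probe sets, the dimmer probe set differed by -0.75 (SE 0.10, adjusted p = 0.00156).

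Cyp2d10 and Cyp2d26 encode further hepatic enzymes of the subfamily, and both lay near the top of the scale, whose highest value on any array was 14.9. Cyp2d10 read 12.85, 12.91 and 12.92 in the SM mice and 13.04, 12.99 and 12.96 in the NZB mice. The arrays of the strains did not overlap, yet the difference of 0.10 (SE 0.06, limma adjusted p = 0.258) did not pass the test, and its 95% interval ran from -0.03 to 0.24. It was 0.11 without SM replicate 2. Cyp2d26 read 13.48, 13.49 and 13.58 in SM and 13.41, 13.31 and 13.38 in NZB, again without overlap. Its difference was -0.15 (SE 0.06, limma adjusted p = 0.114), with a 95% interval of -0.30 to -0.01 before adjustment for multiple tests, and it was -0.17 without SM replicate 2 (adjusted p = 0.184). Arrays that did not overlap were found for 7 of the 10 genes and for 39.4% of all genes, and among all probe sets for 34.3%.

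**Figure D2:**
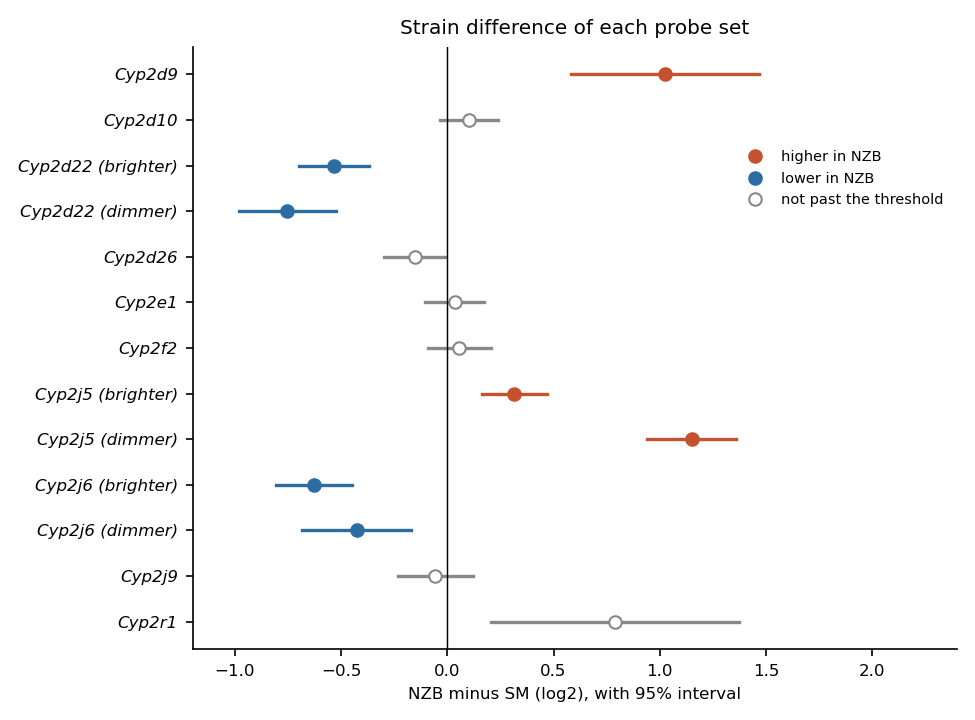
Difference NZB minus SM (log2) of each of the 13 probe sets with its unadjusted 95% interval from the limma fit over all probe sets. Filled points passed an adjusted p of 0.05 in that fit: 3 probe sets lie to the right, at 0.32 to 1.15, and 4 to the left, at -0.43 to -0.75.

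The Cyp2d genes of the array lie side by side on chromosome 15, in the RefSeq order Cyp2d22, Cyp2d10, Cyp2d9, Cyp2d12, Cyp2d34, Cyp2d13, Cyp2d40 and Cyp2d26 among the genes measured. Cyp2d22, at one end, was lower in NZB, Cyp2d10 beside it did not pass the test and Cyp2d9, next in line, was higher. Of the other Cyp2d genes, Cyp2d12 passed the test. It read 5.69, 5.75 and 5.66 in SM and 6.01, 5.91 and 5.86 in NZB, close to background throughout, a difference of 0.23 (SE 0.06, limma adjusted p = 0.0338). That call ended without any 1 array but NZB replicate 3 (adjusted p = 0.0637 to 0.105), and also with the array medians aligned or after quantile normalization (0.0725 and 0.0881). Cyp2d13 differed by -0.27 (limma adjusted p = 0.0568), Cyp2d40 by -0.24 (0.0993) and Cyp2d34 by 0.11 (0.338). Cyp2d13 passed without SM replicate 1 (-0.35, adjusted p = 0.0175), with the array medians aligned (-0.30, 0.0393), with trended and robust variances (0.0482), with array weights (0.0198) and with the mean of probe sets (0.0339). Without NZB replicate 2, Cyp2d34 was at 0.04. Cyp2d40 passed the threshold without SM replicate 2 (-0.32, adjusted p = 0.0453), and its difference was -0.15 without SM replicate 3. Next to the cluster, Ndufa6, a subunit gene of respiratory complex I that lies beside Cyp2d22, was lower in NZB (-0.29, limma adjusted p = 0.0164, and 0.0521 and 0.0541 without NZB replicates 2 and 3). Tcf20, on the far side of Cyp2d26, differed by -0.12 (adjusted p = 0.197). The members of this cluster are closely related in sequence, and a probe set may read more than 1 of them, so the member behind a value is uncertain.

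A list of other genes of subfamilies 2d and 2j had 12 entries, of which 6 were measured. Cyp2d12 was its only gene past the test (1 higher and 0 lower by limma, 1 and 2 at an unadjusted p under 0.05), and the median difference of the 6 was 0.04.

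**Figure D3:**
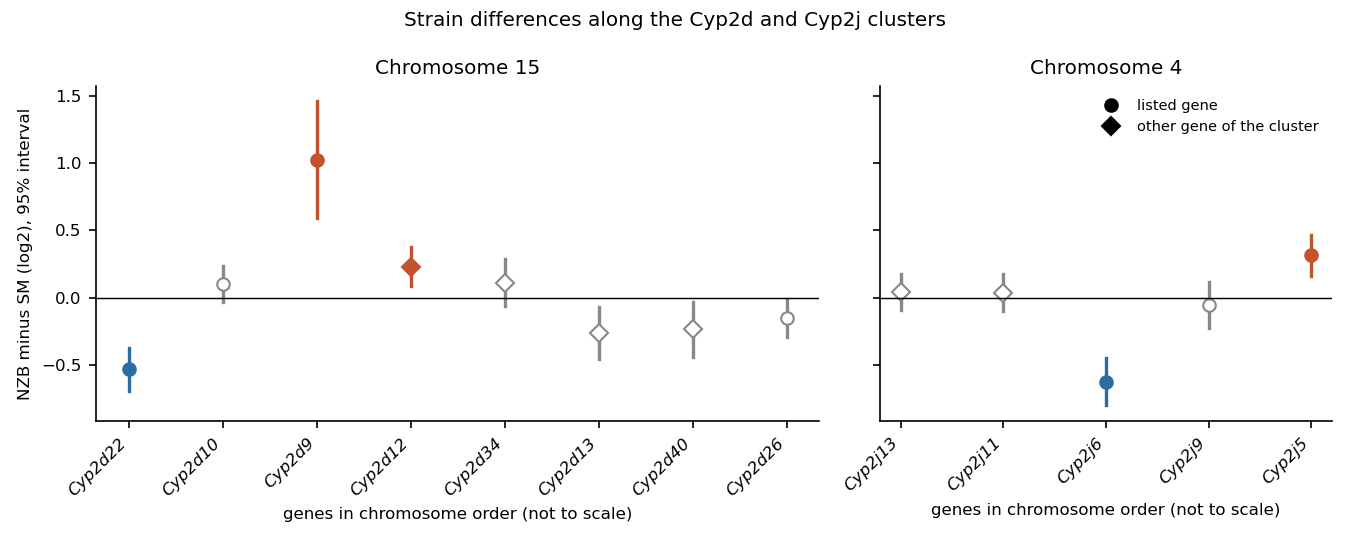
Difference NZB minus SM (log2) with its unadjusted 95% interval for the measured genes of the Cyp2d cluster on chromosome 15 and the Cyp2j cluster on chromosome 4, in RefSeq order and not to scale. Filled points passed an adjusted p of 0.05: Cyp2d22 and Cyp2j6 lie below 0, and Cyp2d9, Cyp2d12 and Cyp2j5 above it.

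The Cyp2j genes encode epoxygenases and hydroxylases of arachidonic and linoleic acid. Cyp2j5, a form abundant in liver and kidney, was read by 2 probe sets that gave unequal differences. The brighter one read 12.70, 12.66 and 12.60 in the SM mice and 13.05, 12.88 and 12.98 in the NZB mice. The dimmer one read 9.28, 9.64 and 9.41 in SM and 10.67, 10.56 and 10.55 in NZB. All NZB arrays lay above all SM arrays in both. By the brighter probe set Cyp2j5 was 1.25-fold higher in NZB (0.32, SE 0.07, limma adjusted p = 0.0104, and 0.0388 without SM replicate 2), and by the dimmer one 2.22-fold higher (1.15, SE 0.09, adjusted p = 8.95e-05 over all probe sets). The strain difference was larger by 0.83 in the dimmer probe set than in the brighter one, with no test of that gap. Which of these sizes holds for the transcript was not tested, so the fold difference of Cyp2j5 is uncertain. The mean of both differed by 0.73. Adjusted over all probe sets, the call of the brighter one ended when SM replicate 2 (adjusted p = 0.0515), NZB replicate 1 (0.0548) or NZB replicate 3 (0.0591) was left out.

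Cyp2j6, found in many tissues, was lower in NZB. Its brighter probe set read 9.03, 9.03 and 8.82 in SM and 8.41, 8.28 and 8.30 in NZB, and its dimmer one 8.80, 8.89 and 8.41 in SM and 8.25, 8.32 and 8.26 in NZB. The strains did not overlap in either, and SM replicate 3 was the lowest SM array in both. The gene was 1.55-fold lower by the brighter probe set (-0.63, SE 0.08, limma adjusted p = 0.000649), and the difference was -0.59 without SM replicate 2 (adjusted p = 0.00480). The dimmer probe set differed by -0.43 (SE 0.11, adjusted p = 0.0364 over all probe sets). Leaving out any array except SM replicate 3 ended its call (adjusted p = 0.0828 to 0.120), as did quantile normalization (0.0556).

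Cyp2j9, best known from brain, read 7.48, 7.43 and 7.35 in SM and 7.46, 7.41 and 7.22 in NZB. The strains overlapped, and the difference of -0.06 (SE 0.08, limma adjusted p = 0.652) had a 95% interval of -0.23 to 0.12. It was 0.01 without NZB replicate 3, -0.10 without NZB replicate 1, -0.03 without SM replicate 1 and -0.09 without SM replicate 3. Without SM replicate 2 it was -0.05. In the RefSeq order of chromosome 4, Cyp2j9 lies between Cyp2j6, which was lower, and Cyp2j5, which was higher. Cyp2j13 and Cyp2j11, the other measured genes of that cluster, differed by 0.04 (limma adjusted p = 0.667) and 0.03 (0.730), the second by -0.01 after quantile normalization, with Cyp2j13 under background on all 6 arrays. Leaving out 1 array gave 0.03 to 0.07 for Cyp2j13 and 0.01 to 0.06 for Cyp2j11. On the other side of Cyp2j5, the nearest measured gene, E130114P18Rik, read under background on all 6 arrays.

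Cyp2e1 encodes the P450 that oxidizes ethanol, acetone and acetaminophen and is made mainly by pericentral hepatocytes. It read 14.14, 14.23 and 14.14 in SM and 14.21, 14.17 and 14.23 in NZB. The arrays overlapped, and the difference was 0.03 (SE 0.06, limma adjusted p = 0.729). The 95% interval, -0.10 to 0.17, corresponds to 0.932-fold to 1.13-fold of the SM level. These readings lay near the highest value on any array, 14.9, and whether differences are compressed there was not tested. The difference was 0.07 without SM replicate 2 and -0.02 after quantile normalization. It was 0.02 without SM replicate 1, SM replicate 3 or NZB replicate 3, and 0.05 without NZB replicate 2. Its measured neighbours on chromosome 7, 5830411N06Rik and Syce1, differed by 0.11 and 0.03 (limma adjusted p = 0.209 and 0.836), and Syce1, under background on all arrays, was at -0.01 without SM replicate 2 or NZB replicate 2, after quantile normalization and when array medians were aligned.

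Cyp2f2, which activates naphthalene, is known from club cells of the airway and from periportal hepatocytes. It read 13.64, 13.60 and 13.59 in SM and 13.62, 13.61 and 13.76 in NZB, with NZB replicate 3 the highest. The difference was 0.06 (SE 0.06, limma adjusted p = 0.586), with a 95% interval of -0.09 to 0.20, and it was 0.01 without NZB replicate 3 and 0.05 without SM replicate 2. The arrays of the strains overlapped. Scgb1a1, the defining secretory protein gene of club cells, read 5.63 to 5.70 in SM and 5.53 to 5.68 in NZB, at or under background on 4 of 6 arrays. Of the 4 measured genes listed as club cell markers, Aldh1a7 (2.34, limma adjusted p = 0.000746) and Scgb3a1 (0.22, 0.0313) were higher in NZB. Aldh1a7 read 10.4 to 11.9 in SM and 13.4 to 13.8 in NZB, and which cells its RNA came from was not tested. The part of these genes in the values of Cyp2f2 was not tested. The measured neighbours of Cyp2f2, Cyp2a12 and Egln2, differed by -0.14 and -0.17 (limma adjusted p = 0.137 and 0.0743). Egln2, read by a single probe set, passed with the array medians aligned (adjusted p = 0.0393) and in the fit in which the probe sets of other genes were averaged (0.0486).

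Genes marking the zones in which Cyp2e1 and Cyp2f2 are made went both ways. Among 15 measured pericentral genes, 3 were called higher in NZB and 2 lower, and 10 were not called, with a median difference of 0.15. The glutathione transferase gene Gstm3 (1.55, limma adjusted p = 0.0276), the R-spondin receptor gene Lgr5 (0.52, 0.0237) and Lect2 (0.34, 0.00923) were higher. The glutamate transporter gene Slc1a2 (-0.98, 0.000140) and Aldh3a2 (-0.63, 0.00154) were lower. Only 1 pericentral gene was higher without NZB replicate 3. The call of Gstm3 depended on SM replicate 2 and NZB replicates 2 and 3, with an adjusted p of 0.0611 to 0.0827 when one of them was dropped. That of Lgr5 depended on SM replicates 1 and 2 and NZB replicates 1 and 3 (0.0563 to 0.0947). The 4 other probe sets of Slc1a2 did not pass the test and ranged from -0.08 to 0.20, and the other one of Lgr5 was at -0.02.

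Of 16 measured periportal genes, 4 were higher, 5 were lower and 7 did not pass, with a median of -0.07. Among the genes called, the 3 largest differences upward were those of the adhesion gene Cdh1 (1.66, limma adjusted p = 8.3e-05), Hsd17b6 (1.25, 2.2e-05) and the protease gene Ctsc (0.84, 0.000278), and those downward were Asl of the urea cycle (-0.56, 0.00206), Pck1 of gluconeogenesis (-0.41, 0.0193) and Hsd17b13 (-0.36, 0.0115). The lower genes numbered 3 without SM replicate 2, and the call of Pck1 ended without SM replicate 1 or 2 or NZB replicate 2 (adjusted p = 0.0508 to 0.0755). Other probe sets of Hsd17b6 (0.15) and Hsd17b13 (0.19) did not pass the test.

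Cyp2r1 encodes the main hepatic vitamin D hydroxylase of the first activation step. It read 6.93, 6.38 and 5.62 in SM replicates 1, 2 and 3 and 7.13, 7.05 and 7.13 in the NZB mice. The NZB arrays lay within 0.08 of each other and above every SM array, while the SM arrays spread over 1.31 and the lowest, SM replicate 3, was under background. The difference of 0.79 (SE 0.25, 95% interval 0.22 to 1.36) did not pass the test (limma adjusted p = 0.0553). It was 0.82 without SM replicate 2 (adjusted p = 0.120). It passed without SM replicate 1 (1.10, adjusted p = 0.00429) and without SM replicate 3 (0.45, adjusted p = 0.0488). Its measured neighbours on chromosome 7, Pde3b and Calcb, differed by -0.19 and 0.07 (limma adjusted p = 0.0907 and 0.597). Pde3b passed without NZB replicate 2 (adjusted p = 0.0355).

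The gene whose profile over the 6 arrays lay nearest to that of Cyp2r1, by the Euclidean distance between values centred on each gene's own mean, was Nsdhl, a sterol dehydrogenase gene of cholesterol synthesis (distance 0.17 in log2 units). Sntg2 (0.32) and Eci3 (0.33) followed. Nsdhl read 10.2, 9.83 and 8.98 in SM and 10.6, 10.4 and 10.5 in NZB, with the same order of the SM mice as Cyp2r1. The order was again the same for Dhcr7, whose enzyme turns 7-dehydrocholesterol, the precursor of vitamin D, into cholesterol. Dhcr7 read 9.94, 9.45 and 8.47 in SM and 10.7, 10.5 and 10.6 in NZB, a difference of 1.30 (SE 0.29, limma adjusted p = 0.0126). All 6 points of these profiles come from the same arrays and share the strain difference, so the likeness is a description.

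**Figure D4:**
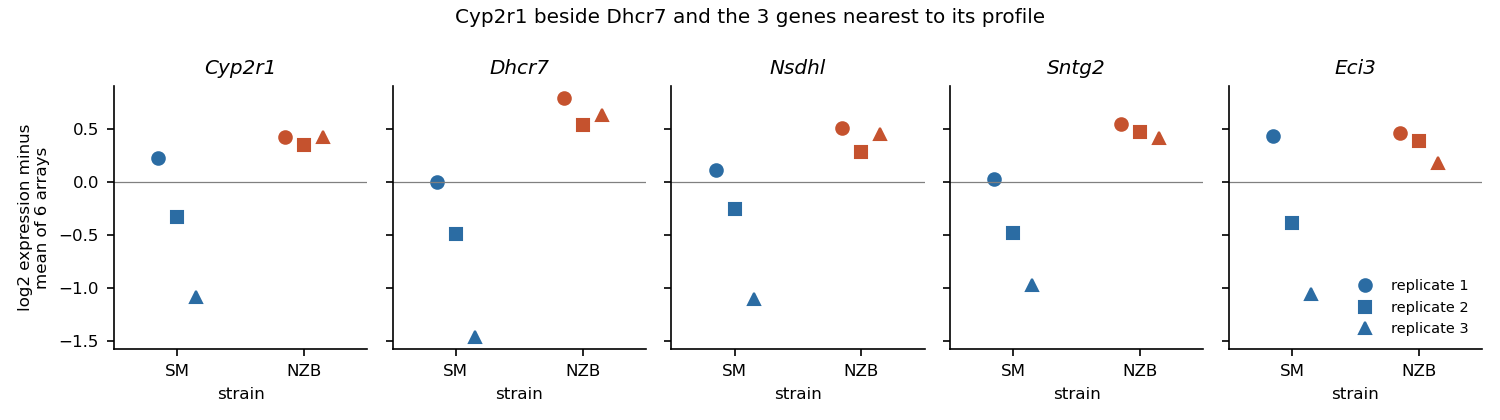
Log2 expression minus the gene's mean over 6 arrays for Cyp2r1, Dhcr7 and the 3 genes nearest to the profile of Cyp2r1, 1 point per array. In each panel SM replicate 3 is the lowest point, and in Cyp2r1 it lies 1.31 under SM replicate 1.

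Dhcr7 belongs to a list of epoxide hydrolase and vitamin D genes, set here beside the Cyp2j and Cyp2r1 genes. Among 9 measured, 2 were called higher in NZB and 0 lower by limma, and 7 were not called, with a median of 0.09. With SM replicate 1 or NZB replicate 2 left out, 1 was higher. The other higher gene, Cyp27b1, the renal hydroxylase that completes vitamin D activation, was under background on all 6 arrays (0.32, limma adjusted p = 0.0217), and its call ended without SM replicate 1 or NZB replicate 1 or 2 (adjusted p = 0.0567 to 0.0725). At an unadjusted p under 0.05, 3 were higher and 1 was lower.

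Cyp2d9 can be set beside other genes known to be male-biased in mouse liver. Of 14 such genes measured, 12 were higher in NZB and 0 were lower by limma, as also at an unadjusted p under 0.05. Their median difference was 0.91. Over all genes, 8.47% were called higher and 12.6% lower. The list was chosen with earlier results of these data known, so its count is a description. NZB replicate 3 was the highest NZB array for 12 of the 14, as it was for Cyp2d9. The rest of the array order was shared less often. Cyp2d9 was lowest on replicate 2 in each strain. NZB replicate 2 was the lowest NZB array for 5 of the 14, and SM replicate 2 the lowest SM array for 5. The 3 largest differences were those of Hsd3b5 (4.31, limma adjusted p = 2.5e-05), Mup10 (3.58, 6.5e-06) and Elovl3 (1.99, 0.000483). The 3 genes nearest to the profile of Cyp2d9 were the glucuronosyltransferase gene Ugt2b37 (distance 0.30), Bcl7c (0.39) and the prostaglandin D synthase gene Ptgds (0.45). Ugt2b37 read 6.51, 6.19 and 6.33 in SM and 7.52, 6.88 and 8.01 in NZB, with the mice of each strain in the same order as in Cyp2d9. The 3 other probe sets of Bcl7c did not pass the test, at 0.06 to 0.10.

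**Figure D5:**
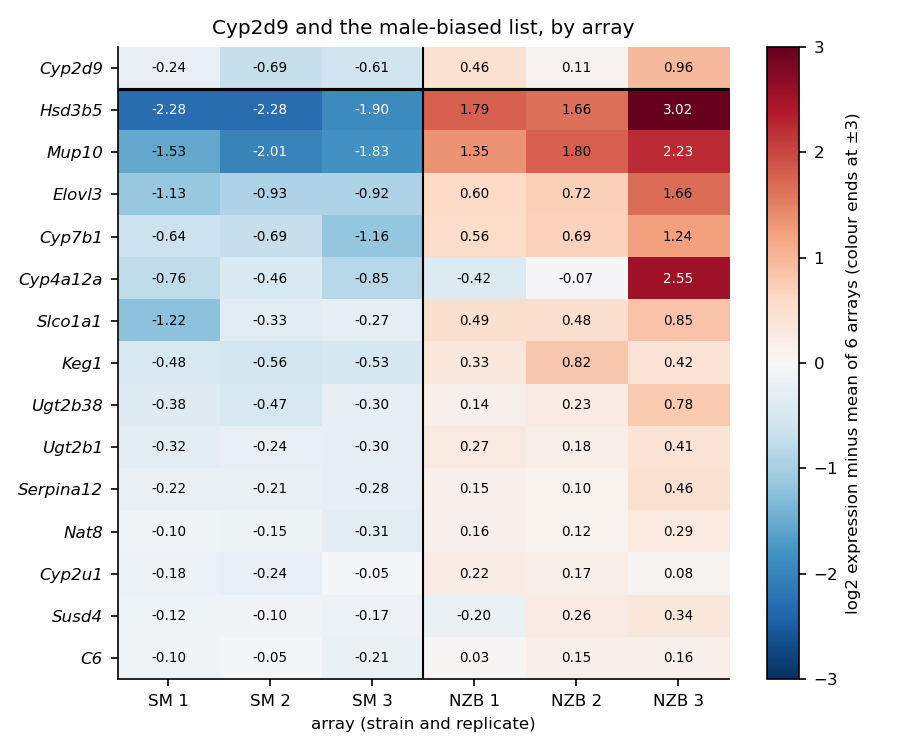
Log2 expression minus the gene's mean over 6 arrays for Cyp2d9 (top) and the 14 measured male-biased genes, ordered by their strain difference, with 1 column per array. NZB replicate 3 has the highest value in Cyp2d9 and in 12 of the 14 genes, and values beyond 3 take the end colour. NZB replicate 2, the lowest NZB array in Cyp2d9, is the lowest NZB array in 5 of the 14.

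Of 14 measured female-biased genes, 7 were lower in NZB and 3 were higher, with a median of -0.56. The largest differences downward were those of Cyp17a1 (-5.47), Sult2a2 (-4.25) and Sult3a1 (-1.88), and the higher genes were Hao2 (1.17), Sult2a8 (0.57) and Fmo2 (0.26), with limma adjusted p of 1.9e-08, 0.0111, 0.000145, 0.0237, 0.00152 and 0.0437. Sult2a2 read 6.43 in NZB replicate 3 against 10.7 and 10.6 in the other NZB mice. With 1 array left out, its difference ranged from -4.98 to -2.84. The higher genes numbered 1 when replicate 2 or replicate 3 of either strain was dropped. Hao2 kept its call only when the array dropped was SM replicate 1 (adjusted p = 0.0565 to 0.0771 for the others), and Fmo2 only when it was NZB replicate 1 (0.0536 to 0.137). The 4 other probe sets of Fmo2 did not pass, at -0.05 to 0.27, and the mean of its probe sets differed by 0.14 (adjusted p = 0.386).

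The other P450 genes of families 2 and 3 gave a background for the 10. Among 24 measured, 5 were called higher in NZB and 6 lower, and 13 were not called, with a median of -0.02. Among those called, the largest differences were those of Cyp2c55 (2.42, limma adjusted p = 0.0367), Cyp2c68 (0.83, 0.00142) and Cyp2u1 (0.31, 0.0142) upward, and Cyp2c23 (-3.23, 5.3e-08), Cyp3a16 (-1.76, 0.0119) and Cyp2b9 (-0.77, 0.000495) downward. With any 1 array left out, 2 or 3 genes were higher. Cyp2c55 read 11.6 in NZB replicate 2 against 8.33 and 8.69 in the other NZB mice, its difference was 1.39 without that array, and its call ended without any 1 SM array (adjusted p = 0.0561 to 0.105). That of Cyp2u1 ended without SM replicate 2 or NZB replicate 1 (0.0619 and 0.0506).

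P450 enzymes need heme and electrons. Of 15 measured genes of electron transfer to P450 and of heme synthesis and breakdown, 3 were called higher in NZB and 3 lower, and 9 were not called, with a median of 0.10. Alas1, the rate-limiting enzyme of heme synthesis in liver, read 12.3, 13.2 and 13.2 in SM and 10.8, 11.6 and 10.2 in NZB and was 4.03-fold lower (-2.01, SE 0.34, limma adjusted p = 0.00325). Its other probe set also fell, by 1.52. Alad, the enzyme after it, was 1.82-fold higher (0.87, SE 0.10, adjusted p = 0.000428). The heme oxygenase gene Hmox1 (-0.89, limma adjusted p = 0.00460) and Fech, which inserts the iron (-0.33, 0.00483), were lower, and the biliverdin reductase genes Blvrb (0.43, 0.00249) and Blvra (0.26, 0.0247) were higher. Blvra kept its call only when SM replicate 2 or NZB replicate 1 was the array dropped (adjusted p = 0.0597 to 0.0882 for the others).

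Of 21 measured transcriptional regulators of P450 genes, 10 were lower in NZB, 0 were higher and 11 did not pass, with a median of -0.29. At an unadjusted p under 0.05, 0 were higher and 12 lower. The clock output factor gene Dbp (-2.40, limma adjusted p = 0.00506), Cebpb (-1.34, 0.000145) and the xenobiotic receptor gene Nr1i2 (-1.18, 9.4e-05) differed most, and a second probe set of each was lower too. Dbp varied widely among the NZB mice, at 7.92, 10.2 and 9.11, against 11.3, 11.5 and 11.6 in SM. Hnf4a, a master regulator of hepatocyte genes, was also lower (-0.38, 0.0113). Without NZB replicate 3, 1 regulator was higher.

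Some markers of other liver cells differed between the strains. In bulk tissue, fewer cells of a type and less RNA per cell cannot be told apart. Of 7 Kupffer cell and macrophage markers, 5 were higher in NZB and 1 was lower, with a summed level of 12.5 to 12.7 in SM and 12.9 to 13.2 in NZB. Of 5 B and plasma cell markers, 3 were higher, with 9.13 to 9.30 in SM and 12.6 to 13.6 in NZB, and of 6 endothelial markers 2 were higher and 2 lower. None of the markers in these 3 lists had a mean under background. Their part in the differences of the P450 genes was not tested. Of 5 cholangiocyte and 6 stellate cell markers 0 passed the test by limma. At an unadjusted p under 0.05, 1 cholangiocyte marker was lower, and 2 stellate cell markers were higher and 2 lower. In the other lists the genes higher and lower were 2 and 0 of 4 for club cells, 0 and 1 of 2 for erythroid cells, 1 and 0 of 5 for kidney tubule, 2 and 0 of 4 for exocrine pancreas, and 0 and 0 of 4 for intestine, where 0 also passed an unadjusted p of 0.05.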

How the data were processed

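Total RNA from whole liver was hybridised to single-colour expression arrays, 1 per sample. The deposited values were made by the authors with RMA, per the submitters' processing notes, and were read as log2 expression because they range from 3.43 to 14.9. The sources used here do not give the version or options of RMA. Of 45037 probe sets, 34945 named 1 gene, 932 several and 9160 none in the platform annotation, and symbols were updated through RefSeq by Entrez number for 34741. A gene was read by its probe set with the highest mean over the 6 arrays, which gave 18193 genes. The strain difference was fitted in R 4.3.3 by lmFit and eBayes of limma 3.58.1 (two-sided, Benjamini-Hochberg adjustment), once over genes and once over probe sets, with a threshold of 0.05. The fit was tested on simulated data. With 3 mice a strain an exact permutation test cannot go below p = 0.1, so none was used. Where samples of a strain share an unstated source, the p-values measure only the spread between these samples. Promoters were aligned with Biopython 1.88.

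The members and all lists were chosen with earlier results of these data known. Named genes are the 10 members, up to 3 per direction with the largest differences among those past the threshold in each list, the nearest measured gene on each side of each member, the 3 genes nearest in profile to Cyp2d9 and Cyp2r1, and the sex check genes. The other genes of the Cyp2d and Cyp2j clusters, the lower hepatocyte marker and Scgb1a1 were named after their values were seen. Summed marker levels are log2 of summed linear values. The alternatives were a replicate block, each array left out, array medians aligned, quantile normalization, trended and robust variances, array weights, removal of dim or cross-hybridizing probe sets, and the mean of a gene's probe sets. Protein sequences were not analysed here.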

Additional observations from a re-analysis of the deposited data

How the results depend on the processing

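Over the alternatives, 134 of 140 differences of the 10 genes kept direction and side of the threshold, and all 54 counts of called members stayed within 1.5 times. Cyp2e1 reversed after quantile normalization (-0.025) and Cyp2j9 without NZB replicate 3 (0.014). With arrays left out, Cyp2e1 ranged from 0.02 to 0.07, Cyp2j9 from -0.10 to 0.014 and Cyp2r1 from 0.45 to 1.10. Cyp2r1 passed with array weights (0.75, limma adjusted p = 0.0204). For 55 other named genes, 690 of 765 differences kept both, 63 lost and 5 gained the call, and 7 reversed without a call: Syce1 (-0.0059 with medians aligned, -0.011 after quantile normalization, and -0.013 to 0.075 with arrays left out), Cyp2j11 (-0.0060 after quantile normalization), E130114P18Rik (-0.12 to 0.023 with arrays left out) and Calcb (-0.0036 to 0.14 with arrays left out). With trended and robust variances the adjusted p was 0.0545 for Alas1, 0.0736 for Dbp, 0.0966 for Dhcr7, 0.104 for Cyp3a16, 0.115 for Sult2a2, 0.135 for Hao2, 0.164 for Gstm3 and 0.196 for Cyp2c55. The cause was not tested.

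With arrays left out, 867 to 1443 genes were higher and 1480 to 2413 lower, and 1482 to 2482 probe sets higher and 2259 to 3904 lower. Higher calls were 40.3% of all gene calls, 30.3% with array medians aligned and 47.5% after quantile normalization. Of 252 list counts 42 moved by over 1.5 times. With arrays left out, higher and lower counts ranged from 0 to 1 and 0 to 1 (other subfamily genes), 1 to 2 and 0 to 1 (epoxide and vitamin D), 0 to 1 higher (regulators), 2 to 3 higher (other CYP2 and CYP3), 1 to 2 higher (female-biased), 1 to 3 higher (pericentral) and 3 to 6 lower (periportal). For other subfamily genes, higher fell to 0 with medians aligned and quantile normalization, and lower rose to 1 with medians aligned, trended variances, array weights and the mean of probe sets. With medians aligned, 3 other CYP2 and CYP3 genes were higher. Quantile normalization gave 5 higher heme and electron transfer genes and 5 higher pericentral genes. The mean of probe sets gave 5 higher heme genes, 1 higher and 6 lower regulators and 1 lower pericentral gene. For epoxide and vitamin D genes, 1 was higher with trended variances or without dim probe sets, and 1 lower with medians aligned or trended variances.

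Replicate numbers recur in both strains, and the labels do not say whether they pair the samples. Deviations of same-numbered arrays correlated at 0.037, -0.055 and 0.025, and 2 of 6 arrays correlated best with their own number. Correlation over whole arrays cannot exclude a pairing that affects some genes. With the replicate block 3436 genes were called against 3827. Under the block Cyp2r1 passed (0.79, limma adjusted p = 0.0391), 0 other subfamily genes were higher and 1 epoxide or vitamin D gene was lower.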
